A study of Mus musculus with 10 samples.

Results

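The insulin-like growth factor (IGF) genes measured here were 9 of the 41249 genes counted in interscapular brown adipose tissue (iBAT), namely the binding proteins Igfbp2, Igfbp3, Igfbp4, Igfbp5, Igfbp6 and Igfbp7, the ligand Igf1 and the receptors Igf1r and Igf2r. They were listed by name as a family, with earlier results of these data known. Among them Igfbp5 was selected because its counts were seen to be lower in Axl KO mice. The difference between genotypes in Igfbp5 is therefore given as a description with no test. Of the 9 genes, 8 had a mean above 1 CPM (counts scaled to a library of 1000000) and were among the 13739 genes tested, and Igfbp2 had no count in any mouse.

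The RNA came from whole iBAT depots of 10 male mice, 5 Axl KO and 5 wild-type (WT) littermates, with 1 library per mouse. All mice had been fed a high-fat diet (HFD) for 24 weeks from 6 to 8 weeks of age at room temperature, as the series record gives it, and no chow-fed group enters the comparison. The paper gives a somewhat older start and a slightly longer diet, a conflict that was not settled. The Axl KO mice were homozygous throughout the body, constitutively, for the Axl tm1a(EUCOMM)HMGU allele, a knockout-first cassette between exons 4 and 5 that was introduced with 2 clones of embryonic stem cells. The knockout is thus not restricted to adipocytes, and the IGF genes of liver, muscle and other organs were outside the samples. AXL is a receptor tyrosine kinase, and the comparison asks which transcripts of brown fat differ when it is missing under HFD.

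IGF1 is a small protein hormone related to insulin, made in liver and in many other tissues under the control of growth hormone, and it signals through the tyrosine kinase IGF1R. The receptor IGF2R has no kinase and carries IGF2 and mannose-6-phosphate-tagged enzymes to lysosomes. Most IGF outside cells is held by binding proteins, which limit its access to IGF1R until proteases cut them, and brown adipocytes depend on IGF1R and the insulin receptor for their development.

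Sequencing depth lay between 5431014 and 8214841 counts per mouse in Axl KO and between 5952427 and 9580215 in WT. The mean level of Axl itself in Axl KO mice was 1.57 CPM ± 0.646 (SD, n = 5), against 43.1 CPM ± 5.86 (SD, n = 5) in WT. Axl was the 1 gene called among all genes tested (log2 fold change −4.77, SE 0.20, adjusted p = 1.10e-07). Every adjusted p of a gene is from the quasi-likelihood test of edgeR, adjusted by Benjamini and Hochberg's method over the 13739 genes (threshold 0.05). The list of brown adipocyte markers, which includes the general adipocyte genes Adipoq and Plin1, had a high sum in every mouse. The sum was 9984 to 12909 CPM in Axl KO and 8292 to 10342 CPM in WT. Markers of hepatocytes summed to at most 3.39 CPM, with Ttr and Fgb at 0. Because whole depots were sequenced, fewer cells of a type and less RNA per cell cannot be told apart.

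Igfbp3, Igfbp4 and Igfbp5 encode the carriers with IGF1 and IGF2 affinity that are found in many tissues, and of the 9 genes they were those with a TATA-type motif in the 120 bases before the start of transcription. Their start regions are shown because the genes of this family differ in that feature. The stretches are RefSeq sequence on GRCm38.p6, each ending at the start annotated in GENCODE. Each is written 5′ to 3′ on the strand of the gene, and the capitals mark the motif.
Igfbp3 at chr11:7213924-7214043, minus strand: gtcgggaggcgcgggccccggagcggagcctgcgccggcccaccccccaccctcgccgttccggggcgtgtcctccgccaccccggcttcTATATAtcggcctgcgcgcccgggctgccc
Igfbp4 at chr11:99041124-99041243, plus strand: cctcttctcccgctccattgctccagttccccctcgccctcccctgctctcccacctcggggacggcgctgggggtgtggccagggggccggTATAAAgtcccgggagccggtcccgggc
Igfbp5 at chr1:72874885-72875004, minus strand: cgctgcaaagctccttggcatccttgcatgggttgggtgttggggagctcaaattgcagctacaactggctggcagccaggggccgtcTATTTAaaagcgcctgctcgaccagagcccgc
The motif began 30 bases before the start in Igfbp3 (TATATA), 28 bases in Igfbp4 (TATAAA) and 32 bases in Igfbp5 (TATTTA). For the shares over all genes, and for the search of the 9 members, windows of the same length ended at the RefSeq start instead. On the gene strand of all 32851 such windows, the letters TATAAA were present in 4.19%, the letters TATTTA in 2.85% and the letters TATATA in 2.51%. Any of the 3 motifs, which can overlap in a window, was present in 8.55%. The core GTAAACA of the FOXO factors, which act below the IGF and insulin receptors, was searched on both strands of the 300 bases around each start, and was in none of the 9 members and in 3.65% of all windows. A match or its absence describes these letters alone.

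Igfbp5 was the binding protein with the highest count in every mouse and encodes a matrix-bound carrier known from bone, muscle and fibroblasts. The gene lies at chr1:72857932-72874884 (GRCm38, minus strand) with 4 exons. In Axl KO mice 1 to 5 its normalized level was 101, 114, 127, 94.9 and 108 CPM, and in WT mice 1 to 5 it was 144, 145, 146, 129 and 139.7 CPM. The highest Axl KO mouse was below the lowest WT mouse, by a narrow margin. The Axl KO mean was 108.9 CPM ± 12.5 (SD, n = 5) and the WT mean 140.6 CPM ± 7.14 (SD, n = 5), a log2 fold change of −0.37 (SE 0.077), or 0.775-fold. This is the difference by which the gene was selected. Scaled by total counts without TMM factors, the groups overlapped, because Axl KO mouse 3 then stood at 133 CPM and WT mouse 4 at 126 CPM. Across the leave-one-out fits the log2 fold change of Igfbp5 was between −0.43 and −0.32. Among the counts on all binding proteins, Igfbp5 took 56.0% ± 3.62 (SD, n = 5) in Axl KO mice and 62.1% ± 2.16 (SD, n = 5) in WT mice, and that share contains the values used for the selection.

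**Figure D1:**
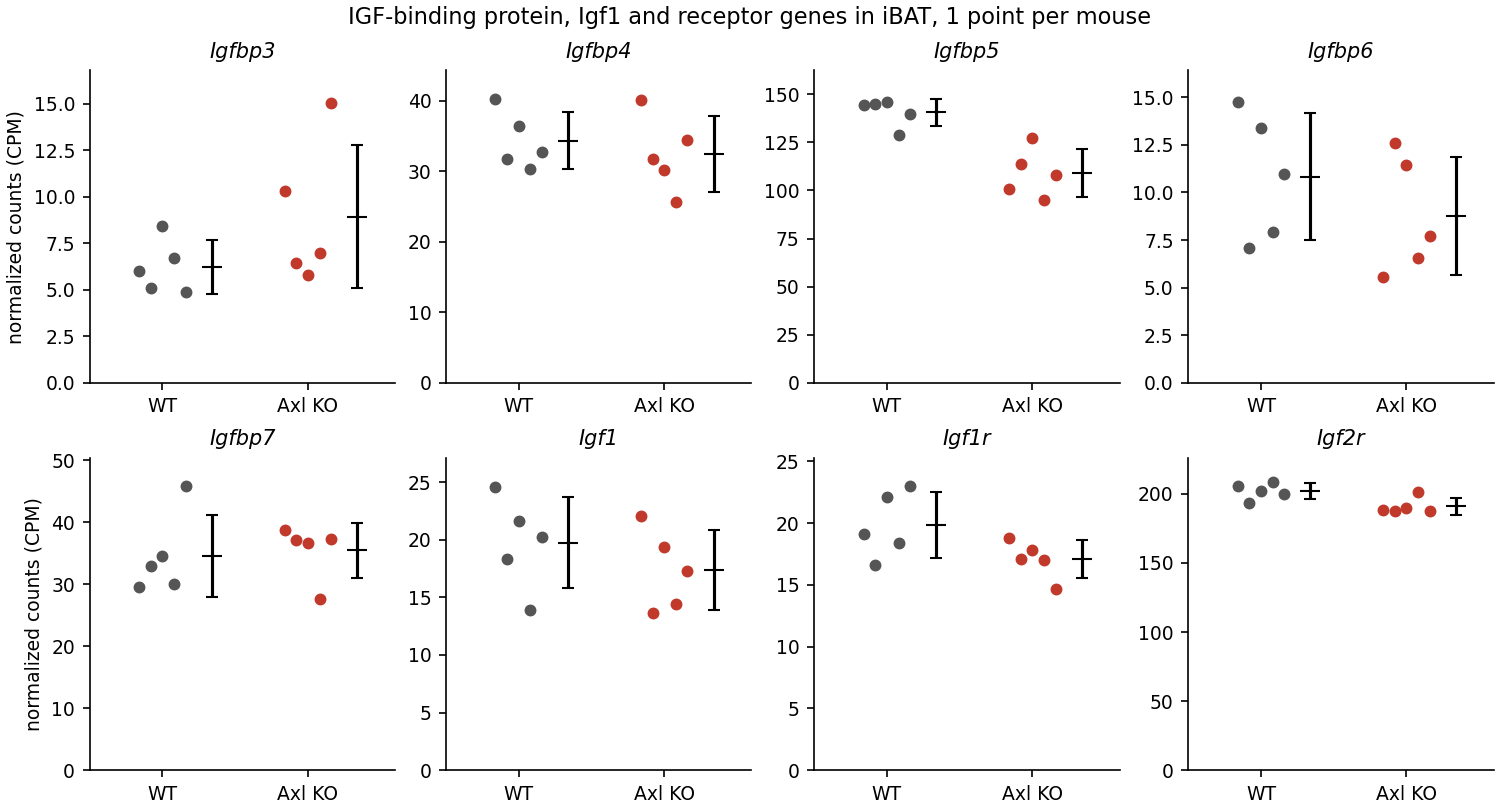
Normalized level (CPM, TMM) of each IGF gene with counts in each mouse, Axl KO and WT side by side, with black bars for the mean ± SD of 5 mice. The 5 Igfbp5 values of Axl KO mice (94.9 to 127 CPM) sit below the 5 WT values (129 to 146 CPM), and the groups overlap in the other panels.

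Igfbp2 adjoins Igfbp5, with its gene at chr1:72824503-72852474 on the plus strand and 5457 bp between the 2 genes, and encodes a carrier that white preadipocytes and liver secrete. It had 0 of 72927886 counts over the 10 mice, which allows a level of up to 0.0411 CPM over all mice together and up to 0.552 CPM in the shallowest mouse. These limits cover counting error alone. Igfbp1, the insulin-regulated carrier of liver, which adjoins Igfbp3 at a distance of 3539 bp, also had 0 counts.

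Igfbp3 encodes the main carrier of IGFs in blood and lies at chr11:7206086-7213923 (minus strand). Its level was 10.3, 6.46, 5.83, 6.99 and 15.1 CPM in Axl KO mice 1 to 5, and 6.01, 5.08, 8.44, 6.71 and 4.91 CPM in WT mice 1 to 5. Axl KO mice 1 and 5 lay above all others, and the remaining 3 Axl KO mice lay inside the WT range. The Axl KO mean was 8.93 CPM ± 3.84 (SD, n = 5) and the WT mean 6.23 CPM ± 1.44 (SD, n = 5), and the log2 fold change of 0.50 (SE 0.26, 95% interval −0.07 to 1.06) did not pass the test (adjusted p = 0.619). Without Axl KO mouse 5 the log2 fold change was 0.24.

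Igfbp4 encodes the carrier that the protease PAPP-A cuts, and lies at chr11:99041244-99054392 (plus strand). Its level was 40.1, 31.7, 30.2, 25.6 and 34.4 CPM in Axl KO mice and 40.3, 31.7, 36.4, 30.3 and 32.7 CPM in WT mice, in the order of replicates. The groups overlapped, with Axl KO mice 3 and 4 below the lowest WT mouse, and the log2 fold change was −0.08 (SE 0.11, 95% interval −0.33 to 0.16, adjusted p = 0.852).

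Igfbp6, at chr15:102144362-102149511 (plus strand), encodes the carrier that prefers IGF2 to IGF1. It was measured at 5.55, 12.6, 11.4, 6.55 and 7.72 CPM in Axl KO mice 1 to 5 and at 14.7, 7.09, 13.4, 7.91 and 10.9 CPM in WT mice 1 to 5. Low and high mice were found in both groups, and the log2 fold change of −0.29 (SE 0.26, 95% interval −0.85 to 0.26) did not pass the test (adjusted p = 0.764).

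Igfbp7 encodes a secreted protein of vessel walls that binds IGFs weakly. The gene, at chr5:77349240-77408041 (minus strand), shares exonic sequence with Polr2b, a subunit of RNA polymerase on the opposite strand, so reads of the 2 genes could be split between them where strand was not used in the counting, which is not given in the sources used here. Polr2b stood at 74.8 CPM in Axl KO and 72.7 CPM in WT. Igfbp7 was at 38.7, 37.1, 36.7, 27.7 and 37.3 CPM in Axl KO mice and 29.5, 33.0, 34.6, 30.1 and 45.8 CPM in WT mice, in the order of replicates. Axl KO mouse 4 was low and WT mouse 5 was high, and the difference between groups was close to zero (log2 fold change 0.03, SE 0.12, 95% interval −0.24 to 0.30, adjusted p = 0.962).

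Igf1, at chr10:87858265-87937042 (plus strand), encodes the ligand. Its level was 22.1, 13.7, 19.4, 14.4 and 17.3 CPM in Axl KO mice and 24.6, 18.3, 21.6, 13.9 and 20.3 CPM in WT mice, in the order of replicates. The lowest WT mouse lay between the lowest and highest Axl KO mice. The log2 fold change was −0.19 (SE 0.16, 95% interval −0.53 to 0.15, adjusted p = 0.751). The antisense gene Igf1os inside the Igf1 span had 6 counts over the 10 mice.

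Igf1r, at chr7:67952827-68233668 (plus strand), encodes the signalling receptor. It stood at 18.8, 17.1, 17.8, 17.03 and 14.7 CPM in Axl KO mice 1 to 5 and at 19.1, 16.6, 22.1, 18.4 and 23.0 CPM in WT mice 1 to 5. WT mice 1, 3 and 5 were above every Axl KO mouse, and WT mouse 2 was below 4 of the 5. The log2 fold change was −0.21 (SE 0.10, 95% interval −0.43 to 0.01, adjusted p = 0.601), so a fall of up to 0.43 or no difference lay inside the interval.

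Igf2r, at chr17:12682406-12769664 (minus strand), encodes the clearance receptor and was the most abundant of the 9 genes in CPM. It stood at 188.2, 187.6, 190.0, 201.5 and 187.4 CPM in Axl KO mice 1 to 5 and at 205.9, 193.6, 202.2, 208.4 and 199.6 CPM in WT mice 1 to 5. Axl KO mouse 4 was the 1 mouse of that group inside the WT range. The log2 fold change was −0.08 (SE 0.049, 95% interval −0.19 to 0.03, adjusted p = 0.662). Airn, a long RNA transcribed antisense through the Igf2r gene and known for silencing Igf2r on the paternal chromosome, shares no exon with it. Airn stood at 8.02, 10.5, 9.21, 10.8 and 8.47 CPM in Axl KO mice and at 11.2, 11.7, 11.3, 11.7 and 12.2 CPM in WT mice. Its groups did not overlap, as was the case in 1.35% of all tested genes. The log2 fold change of −0.30 (SE 0.10) did not pass the test (adjusted p = 0.571). Without strand in the counting, reads from Airn and from Igf2r introns cannot be told apart.

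**Figure D2:**
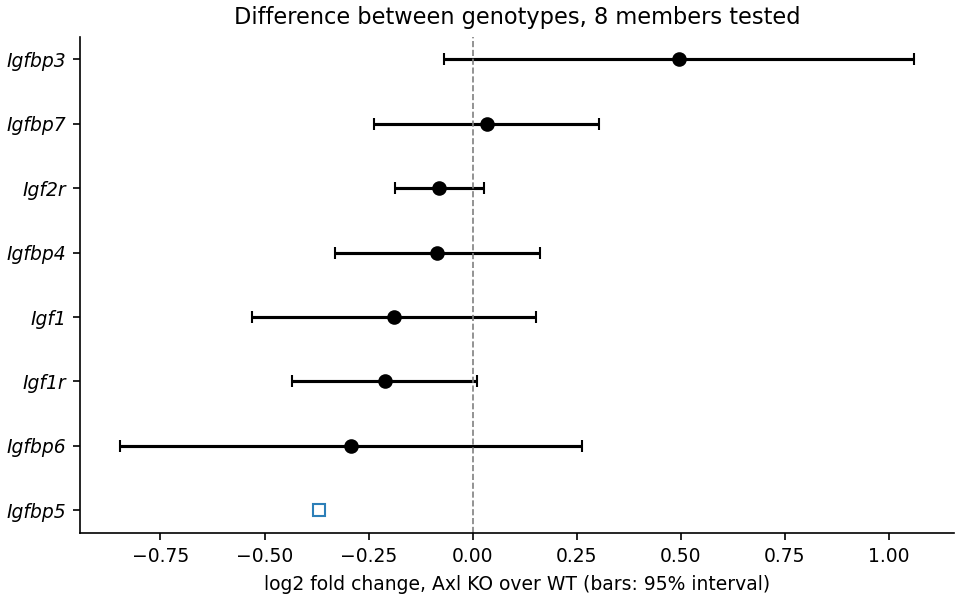
Log2 fold change (Axl KO over WT) of the 8 genes tested, with bars for the 95% interval of 7 of them. Igfbp5, drawn as an open square without an interval, was selected on this difference. All 7 intervals include 0, the widest being those of Igfbp3 (−0.07 to 1.06) and Igfbp6 (−0.85 to 0.26).

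Igfbp5 is left out of the following counts of calls and of overlap, since the same contrast selected it, and its outcome by either method is no test. Of the other 7 members, edgeR called 0, where 0.00728% of all genes were called. Of these 7, 0 had an unadjusted p under 0.05 by edgeR. Over all genes 8.4% did so in either direction and 3.86% as lower in Axl KO. DESeq2 called 0 of these 7, where 0.0655% of all genes were called. The groups overlapped in all 7, where 1.35% of all genes did not. Over all 8 members, Igfbp5 included, 6 were lower in Axl KO and 2 higher, with a median log2 fold change of −0.14. Over all tested genes the median was −0.00059 and 49.8% were higher in Axl KO.

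Levels of different genes were compared per kilobase of exon (CPM per kb). In WT mice Igfbp7 came first with 28.6 ± 5.46 (SD, n = 5), followed by Igfbp5 with 23.4 ± 1.19 and Igf2r with 21.7 ± 0.617. The values of Igfbp7 and Igfbp5 did not overlap in WT mice, whereas those of Igfbp5 and Igf2r did. Igfbp6 (9.73 ± 3.00 CPM per kb) and Igfbp4 (7.76 ± 0.917 CPM per kb) formed an overlapping pair below Igf2r. Igf1 (1.99 ± 0.401 CPM per kb) and Igfbp3 (1.99 ± 0.458 CPM per kb) also overlapped and lay below Igfbp4. Igf1r, at 1.18 ± 0.158 CPM per kb, was the lowest gene with counts. Brown fat thus held more transcript of the binding proteins Igfbp4 to Igfbp7 than of the ligand or its signalling receptor. In Axl KO mice Igf2r (20.5 CPM per kb) preceded Igfbp5 (18.1 CPM per kb) and Igfbp3 (2.85 CPM per kb) preceded Igf1 (1.75 CPM per kb), and 5 of the 9 genes kept their place. The lower place of Igfbp5 contains the difference by which it was selected.

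**Figure D3:**
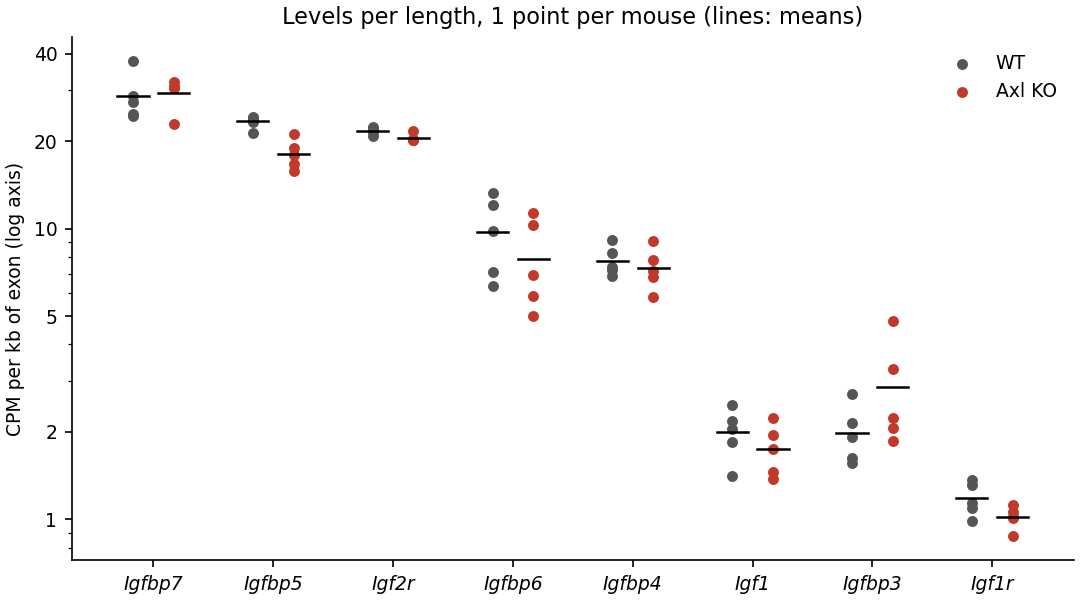
Level of each member per kilobase of exon in WT and Axl KO mice, on a log axis, with a point for each mouse. Igfbp7, Igfbp5 and Igf2r lead in WT mice (28.6, 23.4 and 21.7 CPM per kb), and Igf1r is lowest among the genes with counts (1.18 CPM per kb).

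The other genes of the pathway were 51, of which 38 were tested. By edgeR 0 of them were called, 3 were higher and 2 lower at an unadjusted p under 0.05, where 8.4% of all genes were (DESeq2 called 0 of them as well), and the median log2 fold change was −0.0096 with 17 higher and 21 lower. Among the relatives of the members, Igf2 was low (3.53 CPM in Axl KO and 3.71 CPM in WT), the insulin receptor Insr was abundant (212 CPM and 195 CPM, log2 fold change 0.12, adjusted p = 0.646), and Ins1, Ins2 and Igfbpl1 had 0 counts. The 7 proteases and protease inhibitors tested had 3 higher, 4 lower and a median of −0.0054. Among them the binding-protein protease Adam12 stood at 115, 141, 72.3, 104 and 122 CPM in Axl KO mice and at 56.5, 81.3, 87.4, 88.2 and 79.9 CPM in WT mice. The Axl KO mice were above every WT mouse, except mouse 3, and the log2 fold change of 0.50 (SE 0.16) did not pass the test (adjusted p = 0.571).

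The input from growth hormone, which drives Igf1 transcription through its receptor, JAK2 and STAT5, was tested in 7 genes, all with a positive log2 fold change (median 0.12) and 0 called. The receptor Ghr stood at 394, 282, 256, 255 and 387 CPM in Axl KO mice 1 to 5 and at 246, 238, 267, 239.8 and 259 CPM in WT mice 1 to 5. Igfals, the subunit that joins IGF and IGFBP3 into the large complex of blood, stood at 8.02, 2.25, 2.45, 2.77 and 6.21 CPM in Axl KO mice and at 1.502, 2.54, 2.89, 1.55 and 1.76 CPM in WT mice. In both genes, as in Igfbp3, Axl KO mice 1 and 5 were higher than the other 8 mice. The log2 fold changes were 0.33 (SE 0.13) for Ghr and 1.02 (SE 0.38) for Igfals, both with an adjusted p of 0.571. The STAT5 target Cish was at 111 and 41.4 CPM in these 2 mice, at 16.8 to 32.5 CPM in the remaining 3 of that group and at 10.9 to 62.8 CPM in WT mice (log2 fold change 0.76, SE 0.53, adjusted p = 0.698). When Axl KO mice 1 and 5 were left out, a choice made because of these values, the log2 fold change was 0.08 for Ghr, 0.25 for Igfals, 0.04 for Igfbp3 and −0.10 for Cish, whereas it was −0.32 for Igf1 and 0.43 for Adam12. Igf1 itself was at 22.1 and 17.3 CPM in these 2 mice, inside the WT range of 13.9 to 24.6 CPM.

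**Figure D4:**
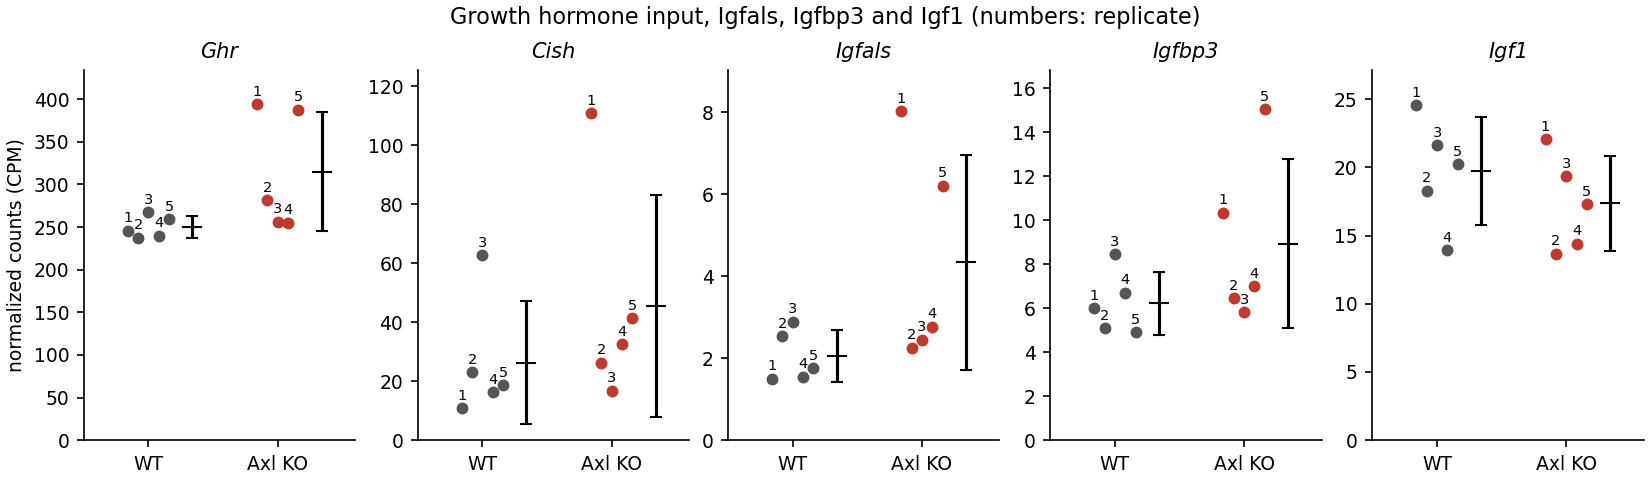
Normalized level (CPM, TMM) of genes of the growth hormone axis in each mouse, each point carrying its replicate number. Axl KO mice 1 and 5 are the highest for Ghr (394 and 387 CPM), Igfals (8.02 and 6.21 CPM) and Igfbp3 (10.3 and 15.1 CPM).

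Signalling adaptors below the receptors gave 5 higher and 9 lower of 14 tested, with a median of −0.017 and 0 called. Gab1, a docking protein, had an Axl KO mean of 28.1 CPM ± 2.35 (SD, n = 5) and a WT mean of 31.5 CPM ± 1.53 (SD, n = 5), and the log2 fold change of −0.16 (SE 0.069) did not pass the test (adjusted p = 0.571). Irs1, the first substrate of IGF1R, had a log2 fold change of −0.17 (SE 0.10, adjusted p = 0.647). Secreted proteins with an IGFBP-type domain were negative in 7 of 7 tested genes with a median of −0.15 and 0 called, for example Ccn1 with −0.43 (SE 0.26, adjusted p = 0.654).

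**Figure D5:**
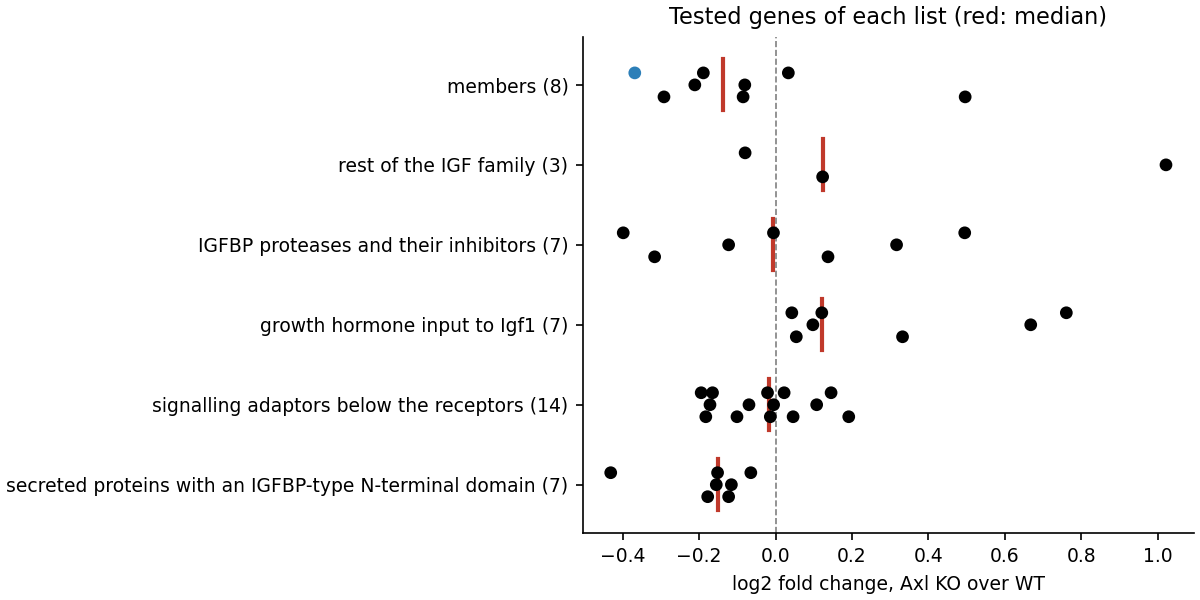
Log2 fold change (Axl KO over WT) of each tested gene of the members and of the pathway lists, one point per gene, with Igfbp5 in blue because it was selected on this difference. The growth hormone genes all lie above 0 (median 0.12), among which Socs3 was above the WT range only in Axl KO mouse 5. The secreted IGFBP-domain proteins all lie below 0 (median −0.15). With Igfbp5 left aside, no gene passed the adjusted test.

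Levels of cell type markers were set beside these values, since Igfbp4, Igfbp5, Igfbp6 and Igf1 are known from stromal cells. Markers of fibroblasts and adipocyte progenitors had a negative log2 fold change in 10 of 10 genes (median −0.32, 0 called), and their summed level was 544 to 929 CPM in Axl KO and 776 to 1032 CPM in WT. Pericyte and smooth muscle markers summed to 655 to 781 CPM in Axl KO and 731 to 829 CPM in WT, with 6 of 8 genes negative, and endothelial markers to 492 to 621 CPM and 480 to 698 CPM. Skeletal muscle RNA varied from 7.06 to 3167 CPM in Axl KO and from 758 to 3654 CPM in WT. The mean of these sums was 1085 CPM ± 1336 (SD) in Axl KO and 2228 CPM ± 1358 (SD) in WT. Muscle markers had a negative log2 fold change in 8 of 8 genes (median −1.02, 0 called), and 0 had an unadjusted p under 0.05. Brown adipocyte markers, whose summed levels are given above, had a positive log2 fold change in 7 of 8 genes (median 0.09, 0 called). Of these, 4 were higher at an unadjusted p under 0.05, where 8.4% of all genes passed in either direction. The groups did not overlap in 2, where 1.35% of all genes did not. At that p 2 fibroblast and progenitor, 1 pericyte and smooth muscle and 1 endothelial marker were lower. These 3 lists had 0 genes without overlap. The part of these cell types in the Igfbp5 values was not tested. Without the 2 Axl KO mice with the least muscle RNA the log2 fold change of Igfbp5 was −0.35, and without the 2 WT mice with the most it was −0.34. Both sets were left out after the data were seen. Both values contain the difference that selected Igfbp5, and the part of muscle RNA in it was not tested.

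The deviations of Igfbp5 from the mean of its own genotype do not use the difference that selected it, and were compared with those of the 7 other members over the 10 mice. With Igfbp6 Pearson's r was 0.69 (p = 0.0430 by a two-sided exact permutation test over 14400 pairings within genotype, 0.301 after Benjamini-Hochberg adjustment over 7 relations) and Spearman's rho 0.65 (exact permutation p = 0.0762, adjusted 0.533). Leaving out Axl KO mice 3 and 4, the farthest from the median of Igfbp5, r was again 0.69. The other r values ran from −0.53 with Igf2r, which became 0.19 with total counts alone, to 0.35 with Igfbp7, which became 0.025 without the 2 farthest mice, and 0 of the 7 relations passed after adjustment.

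The genes whose deviations followed a member most closely, by Pearson's r over 10 mice among genes of at least 10 CPM, are a description, since about 8650 genes were compared for each. For Igfbp5 these were Atxn3 (0.96), Cntrl (0.94), Rp2 (0.92), Tmsb4x (0.92) and Lancl2 (0.89), with 4 of 8649 genes above 0.9. Igfbp3 led with 18 genes above 0.9, the closest being Zfp970, Uhrf1bp1l and Mrpl45 (0.95 to 0.96). The closest gene was Ippk for Igfbp4 (0.91), Rpl17 for Igfbp6 (0.92), Cbx6 for Igfbp7 (0.89), Mpp1 for Igf1 (0.90), Evi5 for Igf1r (0.94) and 1110002L01Rik for Igf2r (0.93). All genes of a mouse share its library and depth.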

How the data were processed

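iBAT RNA of 5 Axl KO and 5 WT mice was sequenced with a TruSeq kit on an Illumina instrument. The authors deposited 1 table of raw counts per Ensembl gene for each mouse, without normalization or pooling. The paper's methods name Trim Galore and hisat2 after rRNA depletion, whereas the submitters' processing notes list Trimmomatic 0.36, STAR 2.6.1c, bcl2fastq, DESeq2 and GRCm38.p5, and the labels give polyA RNA. The counting tool and its strand setting are not given in the sources used here, which bears on Igfbp7 and Igf2r, where opposite-strand genes overlap. Of 41249 identifiers, 41163 matched GENCODE M21, from which names, positions and exon lengths were taken, and 10 promoter windows of the 9 members came from RefSeq (GRCm38.p6).

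Genes with a mean above 1 CPM were kept, and counts were compared in R 4.3.3 with edgeR 4.0.16 (TMM factors of 0.977 to 1.04, quasi-likelihood test, genotype as the only term), with Benjamini-Hochberg adjustment over all tested genes and a threshold of 0.05. The test was tried on simulated counts with known changes. DESeq2 1.42.0 was an alternative, as were other scalings, filters, a replicate block and leaving out each mouse. Levels are TMM-normalized CPM. Correlations used log2(CPM + 0.5) centred within genotype, over 7 relations, since Igfbp2 had no counts. Groups and replicate numbers came from the labels. Named genes were Axl, the members, the pathway lists, overlapping or adjoining genes and the genes most like a member. The members and all lists were chosen with earlier results of these data known. Library depth was 5431014 to 9580215 counts, so that Igfbp3 rested on 39 to 80 counts per mouse. The edgeR p-values set the genotype difference against the spread between mice of 1 cohort. The permutation p-values set a correlation against the pairings of these mice within genotype.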

Additional observations from a re-analysis of the deposited data

Results flagged for a closer look

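Axl KO mouse 4 stood apart from its group in 2 genes. Igfbp7 was at 27.7 CPM there, with the nearest Axl KO mouse at 36.7 CPM, a gap of 0.819 of the range of the group. Igf2r was at 201.5 CPM, with the nearest at 190.0 CPM, a gap of 0.816 of the range. Both gaps exceed Dixon's 95% critical value for 5 samples. Of 16 groups examined 2 were found, and chance alone gives about 1 in 20, or 0.8 groups. Without this mouse the log2 fold change was 0.11 for Igfbp7 and −0.10 for Igf2r.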

How the results depend on the processing

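Of 147 values, the log2 fold changes of 7 members under 21 alternatives, 140 kept their direction and side of the threshold and 7 changed direction. Igfbp7 turned negative without WT mouse 1 (−0.018) and without WT mouse 4 (−0.0097), so its leave-one-out range was −0.018 to 0.16, and it was −0.034 without Axl KO mice 1 and 2, −0.033 without Axl KO mice 1 and 5 and −0.037 without WT mice 1 and 3. Without these 2 WT mice Igfbp4 (0.034) and Igfbp6 (0.031) turned positive. The sets of 2 mice were chosen after seeing the data. DESeq2 called 9 genes, against 1 with edgeR, and the cause was not tested. Of the 7 members other than Igfbp5, 0 were called by either. The order of levels in Axl KO mice kept 5 of 9 places, and the change of place of Igfbp5 contains the difference that selected it. The correlation with Igfbp5 reversed for Igfbp4 (−0.023) and Igf1r (−0.063) without the 2 farthest mice and for Igf2r (0.19) with total counts alone. When each mouse was left out, the log2 fold change ranged from 0.24 to 0.64 for Igfbp3, from −0.17 to −0.011 for Igfbp4, from −0.45 to −0.16 for Igfbp6, from −0.29 to −0.10 for Igf1, from −0.27 to −0.15 for Igf1r and from −0.10 to −0.069 for Igf2r, and the adjusted p of Igfbp3 from 0.291 to 0.999 over its alternatives. The deviations of same-numbered mice had correlations of −0.184, 0.370, 0.042, 0.049 and −0.355. For number 2 the value was above the best match of Axl KO mouse 2 with another WT mouse (0.238), and for the other numbers below. These 5 values cannot decide whether the numbers pair the mice. With a replicate block 0 of the 7 members other than Igfbp5 were called, and the log2 fold change of Igfbp5 was −0.37. Depth limits Igfbp3, Igfbp6 and Igfals, of which Igfbp3 rests on 39 to 80 and Igfals on 9 to 52 counts per mouse.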
